A study of Mus musculus with 8 samples.

Results

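Temperature has opposite readouts in the mammalian transcriptome: cold-inducible RNA-binding proteins, whose mRNAs accumulate when cells cool, and heat shock genes, whose mRNAs accumulate when cells warm or their proteins unfold. In the esophagi of healthy mice lacking monoacylglycerol lipase (MGL KO), Cirbp mRNA stood at 59.3% of the level in wild-type (WT) esophagi, while the stress-inducible chaperone genes Hspa1a, Hspa1b and Hsp90aa1 stood at 2.02-fold, 1.97-fold and 2.00-fold of it. For these 4 genes no MGL KO library overlapped with a WT library, where 6.02% of all genes tested did not overlap. The other cold-inducible gene, Rbm3, and the other heat shock genes described, Hspa8, Hsph1, Dnajb1, Hspb1 and Hsf1, overlapped between the genotypes. The genes described here are Cirbp and Rbm3, the 8 heat shock genes Hspa1a, Hspa1b, Hspa8, Hsph1, Dnajb1, Hsp90aa1, Hspb1 and Hsf1. They were taken by gene symbol, and all 10 were among the 14864 genes tested of the 32849 symbols listed. The choice was made with the differences between MGL KO and WT already in view, so those differences are given for these 10 genes as a description and not as a test.

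RNA from frozen esophagus tissue of MGL KO and WT mice was enriched for poly(A) RNA and sequenced as 4 libraries of each genotype, and the reads of each gene symbol were counted. MGL degrades the endocannabinoid 2-arachidonoylglycerol. The comparison asked which transcripts differ at baseline, before any esophagitis is induced. In the MGL KO mice the enzyme is missing from every tissue, not only from the esophagus, and the line was bred in-house with WT littermates. Whether the WT esophagi came from those littermates is not stated. None of the mice received an agent or an inflammatory stimulus. The study used young adult mice of both sexes, and the strain of the line and the age and sex behind each library are not given in the sources used here. The Y-linked gene Ddx3y was present in all 8 libraries, at 68.8 to 111 normalized CPM, and Xist was at 6.23 or less. Mgll, the targeted gene, measured 13.7 ± 1.54 normalized CPM (each count relative to the size of its library, scaled for composition; SD, n = 4) in MGL KO and 81.2 ± 9.97 (SD, n = 4) in WT esophagi, with no overlap.

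Between 13479069 and 17090152 reads were counted per library. At this depth a member had between 177 counts (Hspa1a in a WT library) and 31598 counts (Hspa8), so that none lay near the limit of 3 counts that a count of 0 allows. Libraries differed in their tissue makeup. The summed level of 10 squamous epithelium genes, all but Ivl of which reached 1 normalized CPM in some library, ranged from 4736 to 17282 normalized CPM in MGL KO and from 5436 to 17598 in WT, with the lowest values in MGL KO replicate 2 and WT replicate 3. These 2 libraries also had the highest sums of 10 skeletal muscle genes, at 84161 and 72215 normalized CPM. MGL KO replicate 4 held 552 normalized CPM of 8 airway ciliated cell genes, where every other library held between 9.66 and 17.0, and it was also highest in 6 adipocyte genes (547 normalized CPM against at most 333) and in Lyz2, a lysozyme gene of macrophages and neutrophils (1397 against at most 729). The other blood and immune genes listed summed to 45.8 to 155 normalized CPM in MGL KO and to 140 to 375 in WT. Of these sums, the hemoglobin gene Hba-a1 alone made up 23.2 to 120 normalized CPM in MGL KO and 96.3 to 347 in WT. Fewer cells of a type and less RNA per cell cannot be told apart in such bulk samples. More than one NovaSeq model was used for sequencing, and since which library ran on which is not given in the sources used here, values within an instrument could not be computed.

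Cirbp and Rbm3 are small glycine-rich RNA-binding proteins with a single RNA recognition motif. Both bind mRNAs and act on their stability, splicing and translation, and the level of Cirbp follows the daily rhythm of body temperature. Heat shock genes are switched on by Hsf1, the heat shock factor, which is held inactive by chaperones and, when released, binds heat shock elements, inverted repeats of the letters GAA. Hspa1a and Hspa1b encode the inducible HSP70, Hspa8 its constitutive relative, Hsph1 (HSP110) a nucleotide exchange factor for it, Dnajb1 (HSP40) a co-chaperone that passes it substrates, Hsp90aa1 the inducible HSP90, and Hspb1 the small heat shock protein HSP25. In the esophagus, small heat shock proteins and HSP70 are abundant in the squamous epithelium and in muscle.

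For Cirbp and the 2 inducible HSP70 genes, examples of the cold-inducible and heat shock members, the 200 bases before the transcription start are shown. They were read from GRCm39 at the canonical starts of GENCODE mouse release 39 and are written from 5′ to 3′ on the strand of the gene. Capitals mark matches to a pair of inverted GAA units, GAANNTTC or TTCNNGAA, and to TCCCCGCC, an element described in the Cirbp promoter for mild cold, searched on both strands.
Cirbp, chr10:80003412-80003611, forward strand: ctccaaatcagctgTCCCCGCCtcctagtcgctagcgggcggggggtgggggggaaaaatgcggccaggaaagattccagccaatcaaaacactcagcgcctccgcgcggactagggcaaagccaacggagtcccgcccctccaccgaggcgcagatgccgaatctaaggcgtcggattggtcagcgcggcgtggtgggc
Hspa1a, chr17:35191133-35191332, reverse strand: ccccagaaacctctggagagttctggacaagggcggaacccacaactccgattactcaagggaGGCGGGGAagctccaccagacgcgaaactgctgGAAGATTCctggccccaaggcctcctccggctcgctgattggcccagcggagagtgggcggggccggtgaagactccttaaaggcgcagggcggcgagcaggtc
Hspa1b, chr17:35178215-35178414, reverse strand: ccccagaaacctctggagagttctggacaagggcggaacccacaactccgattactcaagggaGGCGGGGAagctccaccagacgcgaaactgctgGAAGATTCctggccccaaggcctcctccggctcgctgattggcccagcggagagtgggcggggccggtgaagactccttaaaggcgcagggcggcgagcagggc

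In the 300 bases from 250 before to 50 after the start, GAANNTTC was found in Hspa1a, Hspa1b, Dnajb1 and Hspb1, where 7.41% of the 21770 protein-coding promoters of that length hold it. TTCNNGAA was found in Hsph1 and is held by 7.98% of promoters. A run of 3 such units in alternating orientation, which contains both shorter forms, was found in 0 of the 10 members and is held by 0.478% of promoters. TCCCCGCC was found from 186 to 179 bases before the start of Cirbp. It was also found, on the other strand as GGCGGGGA, in Hspa1a and Hspa1b, and 6.06% of promoters hold it. The printed stretches of Hspa1a and Hspa1b were identical at 199 of 200 bases. A match is a description of letters and not a binding site, and a window without a match says nothing of the factor.

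**Figure D1:**
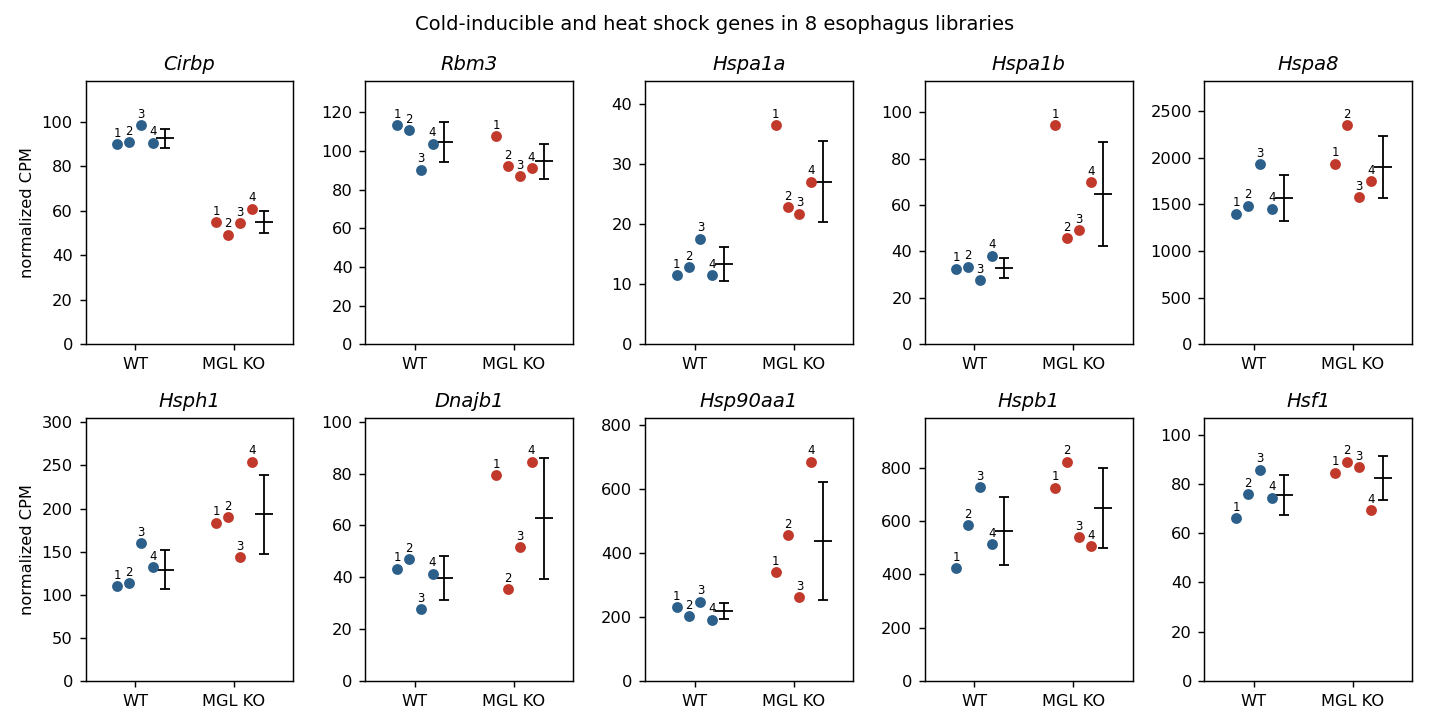
Normalized CPM (y axis, from 0) of the 10 genes in each of the 4 WT and 4 MGL KO libraries, numbered by replicate, with bars for the mean ± SD. Cirbp lay between 49.3 and 61.0 in MGL KO and between 89.9 and 98.7 in WT, and Hspa1a, Hspa1b and Hsp90aa1 were also separated by genotype, in the opposite direction.

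Cirbp (ENSMUSG00000045193, forward strand of chr10:79997069-80008626, GRCm39) encodes the cold-inducible RNA-binding protein. Its level was 55.0, 49.3, 54.3 and 61.0 normalized CPM in MGL KO replicates 1 to 4 and 89.9, 91.0, 98.7 and 90.7 normalized CPM in WT replicates 1 to 4. Every MGL KO library was below every WT library, and the spread within each genotype was small against the gap between them. The means were 54.9 ± 4.82 (SD, n = 4) in MGL KO and 92.6 ± 4.10 (SD, n = 4) in WT, a log2 fold change of -0.75 with a standard error of 0.09. Of the 10 members, Cirbp alone passed edgeR's quasi-likelihood test after adjustment over all genes by Benjamini and Hochberg (adjusted p = 0.0494). That test called 0.0471% of the genes tested, 0.0269% as lower and 0.0202% as higher in MGL KO. The exact test of edgeR called 3 of the 10 members and 0.431% of the genes tested, and DESeq2 called 4 of the 10 and 0.922%. Since the members were chosen on this contrast, nothing is read from these calls. The call of Cirbp by the quasi-likelihood test was lost (adjusted p between 0.0556 and 0.222) on leaving out any one of the 8 libraries, while the log2 fold change stayed between -0.81 and -0.70.

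Rbm3 (ENSMUSG00000031167, reverse strand of chrX:8004213-8012119) is the closest relative of Cirbp and is induced by mild cooling. Its level was 108, 92.3, 87.0 and 91.3 normalized CPM in MGL KO replicates 1 to 4 and 113, 111, 90.3 and 104 normalized CPM in WT replicates 1 to 4. MGL KO replicate 1 lay among the WT libraries, and WT replicate 3 lay among the MGL KO libraries. The means were 94.6 ± 9.05 and 105 ± 10.3 normalized CPM (SD, n = 4 each), and the log2 fold change of -0.14 was close to its standard error of 0.11 and stood at -0.056 with the Y-linked genes as a covariate. The antisense gene Rbm3os overlaps Rbm3 but had only 2 to 8 counts in any library.

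Cirbp and Rbm3 were also set against each other within each library. The ratio of Cirbp to Rbm3 was 0.51, 0.53, 0.62 and 0.67 in MGL KO replicates 1 to 4 and 0.79, 0.82, 1.09 and 0.87 in WT replicates 1 to 4. The groups did not overlap in this ratio of normalized CPM, which is compared between libraries and not corrected for transcript length. The mean ratio was 0.58 ± 0.07 in MGL KO and 0.90 ± 0.14 in WT (SD, n = 4 each).

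Hspa1a (ENSMUSG00000091971, reverse strand of chr17:35188166-35191132) and Hspa1b (ENSMUSG00000090877, reverse strand of chr17:35175412-35178214) are neighbouring genes of 1 exon each, 9951 bases apart, that encode nearly the same inducible HSP70. Hspa1a measured 36.6, 22.8, 21.8 and 27.1 normalized CPM in MGL KO replicates 1 to 4 and 11.5, 12.8, 17.6 and 11.5 normalized CPM in WT replicates 1 to 4. Hspa1b measured 94.5, 45.8, 49.1 and 70.0 normalized CPM in MGL KO replicates 1 to 4 and 32.6, 33.4, 27.7 and 38.2 normalized CPM in WT replicates 1 to 4. For both genes every MGL KO library was above every WT library, with MGL KO replicate 1 the highest and MGL KO replicate 4 the next.

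The means of Hspa1a were 27.1 ± 6.74 and 13.4 ± 2.89 normalized CPM (SD, n = 4 each), a log2 fold change of 1.02 with a standard error of 0.21. Those of Hspa1b were 64.9 ± 22.5 and 33.0 ± 4.31 normalized CPM (SD, n = 4 each), a log2 fold change of 0.98 with a standard error of 0.23. Hspa1b varied more between MGL KO than between WT libraries. Because 47.1% of the windows of 100 bases in Hspa1a also occur in Hspa1b, and how reads that fit both genes were counted is not stated, the split between them is uncertain. The sum of the pair is not affected by that split: it was 131, 68.7, 70.8 and 97.1 normalized CPM in MGL KO replicates 1 to 4 and 44.1, 46.3, 45.3 and 49.7 in WT replicates 1 to 4. These sums did not overlap, and on them the log2 fold change was 0.99 with a standard error of 0.20.

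Hspa1a took 29.9% ± 2.57 of the counts of the pair in MGL KO and 29.0% ± 6.86 in WT (SD, n = 4 each). The WT spread came from replicate 3, where the share was 38.9% (95% Wilson interval 35.3% to 42.6%, counting error only), against 23.2% to 27.7% in the other WT libraries. That library held the most Hspa1a and the least Hspa1b of the WT group.

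Hsp90aa1 (ENSMUSG00000021270, reverse strand of chr12:110656842-110669166) encodes the stress-inducible form of HSP90, a chaperone of kinases and steroid receptors. It measured 341, 457, 263 and 687 normalized CPM in MGL KO replicates 1 to 4 and 232, 202, 249 and 192 normalized CPM in WT replicates 1 to 4. The genotypes did not overlap, but MGL KO replicate 3 came close to WT replicate 3, and MGL KO replicate 4 stood far above the rest. The means were 437 ± 185 and 219 ± 26.1 normalized CPM (SD, n = 4 each), a log2 fold change of 1.00 with a standard error of 0.27. Without MGL KO replicate 4, the library highest in airway ciliated cell and adipocyte genes, it was 0.69, and without MGL KO replicates 2 and 4 it was 0.47. The part of these other tissues in this difference was not tested otherwise.

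Hsp90aa1 was set against Hsp90ab1, the constitutive HSP90 gene, within each library. It reached 10.3%, 10.3%, 8.66% and 22.7% of the Hsp90ab1 level in MGL KO replicates 1 to 4 and 8.66%, 7.01%, 7.26% and 6.69% in WT replicates 1 to 4. MGL KO replicate 3 and WT replicate 1 were all but equal in this share, so the groups touched. In the same way, Hspa1a and Hspa1b together reached 6.78%, 2.92%, 4.51% and 5.56% of the level of Hspa8, the constitutive HSP70 gene, in MGL KO replicates 1 to 4. In WT replicates 1 to 4 the share was 3.15%, 3.12%, 2.34% and 3.42%, and MGL KO replicate 2 lay within that range.

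**Figure D2:**
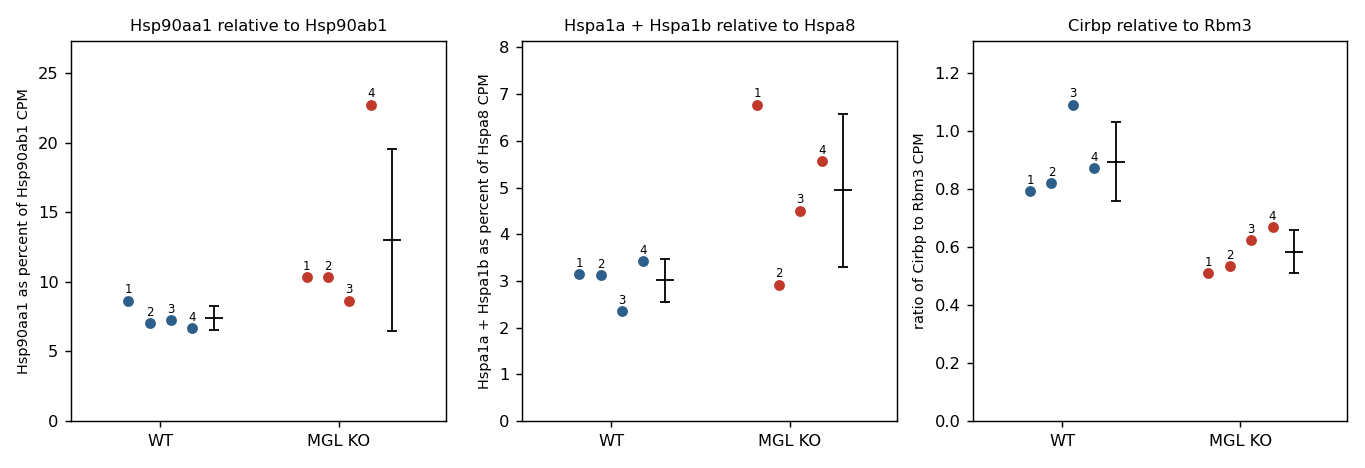
Each panel gives a ratio of normalized CPM within a library (y axis, from 0) for the 4 WT and 4 MGL KO libraries, numbered by replicate, with bars for the mean ± SD. Hsp90aa1 reached 22.7% of Hsp90ab1 in MGL KO replicate 4 and 10.3% or less elsewhere, the share of inducible HSP70 overlapped in MGL KO replicate 2, and the ratio of Cirbp to Rbm3 did not overlap.

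Hsph1 (ENSMUSG00000029657, reverse strand of chr5:149537636-149560156) measured 184, 190, 144 and 254 normalized CPM in MGL KO replicates 1 to 4 and 110, 113, 160 and 132 normalized CPM in WT replicates 1 to 4. MGL KO replicate 3 lay below WT replicate 3, and the other 3 MGL KO libraries lay above the WT group. The log2 fold change was 0.58 with a standard error of 0.19, and 0.35 without MGL KO replicates 2 and 4.

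Dnajb1 (ENSMUSG00000005483, forward strand of chr8:84334811-84339820) measured 79.3, 35.4, 51.7 and 84.6 normalized CPM in MGL KO replicates 1 to 4 and 43.3, 47.1, 27.7 and 41.4 normalized CPM in WT replicates 1 to 4. MGL KO replicate 2 lay within the WT range, while MGL KO replicates 1 and 4, which also led in Hspa1a and Hspa1b, had the highest values. The log2 fold change was 0.66 with a standard error of 0.28, the largest standard error of the 10 genes. No window of 100 bases of Hsph1 or Dnajb1 occurred in another gene, so their counts do not carry the uncertainty of the HSP70 pair.

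Hspa8 (ENSMUSG00000015656, forward strand of chr9:40711630-40731039), which folds newly made proteins and uncoats clathrin vesicles, measured 1935, 2350, 1572 and 1745 normalized CPM in MGL KO replicates 1 to 4 and 1399, 1485, 1932 and 1453 normalized CPM in WT replicates 1 to 4. The genotypes overlapped through WT replicate 3 alone, which was level with MGL KO replicate 1. The log2 fold change was 0.28 with a standard error of 0.18, and 0.16 without MGL KO replicate 2.

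Hspb1 (ENSMUSG00000004951, forward strand of chr5:135916760-135918417), which holds unfolded proteins and protects actin filaments, measured 727, 824, 541 and 507 normalized CPM in MGL KO replicates 1 to 4 and 425, 585, 729 and 515 normalized CPM in WT replicates 1 to 4. The genotypes overlapped broadly, and the log2 fold change of 0.21 was about as large as its standard error of 0.22. It was 0.074 without MGL KO replicate 2, 0.092 without WT replicate 1 and 0.36 without WT replicate 3. Hspa8 and Hspb1 were highest of their genotype in MGL KO replicate 2 and WT replicate 3, the libraries with the most skeletal muscle and the least squamous signal. The part of tissue makeup in these values was not tested beyond the fits with those signals as covariates.

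Hsf1 (ENSMUSG00000022556, forward strand of chr15:76361558-76388138) encodes the factor that binds heat shock elements and is itself regulated mostly at the protein level. It measured 84.6, 89.1, 86.9 and 69.4 normalized CPM in MGL KO replicates 1 to 4 and 66.0, 75.8, 85.8 and 74.5 normalized CPM in WT replicates 1 to 4. The genotypes overlapped, and the log2 fold change was 0.13 with a standard error of 0.12. It was 0.068 without WT replicate 1, and 0.20 without WT replicate 3 or MGL KO replicate 4, and 0.080 with library size alone. Hsf1 shares exon bases with Bop1 and Dgat1, and 40.1% of its windows of 100 bases also occur in other genes. That share was 62.8% for Hspa8, mostly through Gm15459, 55.4% for Hspb1, through Hsp25-ps1, 44.1% for Hsp90aa1, 20% for Cirbp and 13.1% for Rbm3, so reads of these genes could have been split or left out in the counting.

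Between genes, levels were compared per kb of length, taken once from the merged exons of all annotated transcripts and once from the canonical transcript, a second length chosen after seeing the data. In proportion, the lengths differ most for Hspa8 (8680 against 2394 bases) and Cirbp (4127 against 1321 bases). In WT, Hspb1 stood at 539 ± 123 and Hspa8 at 181 ± 28.3 normalized CPM per kb of merged exons (SD, n = 4), without overlap, but at 615 ± 140 and 655 ± 103 per kb of canonical transcript, overlapping and in the other order. On either length these 2 genes lay above the other 8 members in both genotypes. Hsp90aa1 came next at 47.5 ± 5.67 per kb of merged exons in WT, above Cirbp at 22.4 ± 0.99, while per kb of canonical transcript it stood at 61.9 ± 7.40 and overlapped with Cirbp at 70.1 ± 3.11. Rbm3 at 13.4 ± 1.32, Hspa1b at 11.8 ± 1.54, Hsph1 at 11.6 ± 2.06 and Dnajb1 at 10.6 ± 2.25 per kb of merged exons in WT did not differ beyond their spread, and Hsf1 at 7.55 ± 0.81 overlapped with Dnajb1. Per kb of canonical transcript Rbm3 (20.9 ± 2.06), Hsph1 (20.9 ± 3.71) and Hsf1 (14.7 ± 1.58) moved up relative to Hspa1b (11.8 ± 1.54) and Dnajb1 (11.3 ± 2.40). Hspa1a at 4.51 ± 0.97 was the lowest in WT on either length, without overlap. Its counts carry the uncertain split with Hspa1b, and 56.5% of its windows of 100 bases also occur in other genes.

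In MGL KO, Hspb1, Hspa8 and Hsp90aa1 stood at 622 ± 145, 219 ± 38.5 and 94.9 ± 40.1 normalized CPM per kb of merged exons (SD, n = 4), followed by Hspa1b at 23.1 ± 8.02, Hsph1 at 17.4 ± 4.11, Dnajb1 at 16.7 ± 6.18, Cirbp at 13.3 ± 1.17, Rbm3 at 12.1 ± 1.16, Hspa1a at 9.12 ± 2.27 and Hsf1 at 8.25 ± 0.89, each of these last 7 overlapping with the next. The place of Cirbp relative to Hspa1b in MGL KO turned with the length. Cirbp lay below every library of Hspa1b per kb of merged exons, and above every one of them, at 41.6 ± 3.65, per kb of canonical transcript. In WT it lay above every library of Hspa1b on both lengths. These levels are therefore approximate, and differences between the genotypes do not depend on the length.

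Of the 10 members, 4 did not overlap between the genotypes, 1 lower and 3 higher in MGL KO, where 6.02% of all genes tested did not overlap, 2.72% higher and 3.3% lower in MGL KO. All 8 heat shock members had a log2 fold change above 0, against 53% of the genes tested, and their median was 0.62 against 0.02 over all genes tested. For all 8 the highest library was an MGL KO library and the lowest a WT library. Which MGL KO library led differed by gene: replicate 1 for the HSP70 pair, replicate 2 for Hspa8, Hspb1 and Hsf1, and replicate 4 for Hsph1, Dnajb1 and Hsp90aa1. WT replicate 3 was the highest WT library for 6 of the 8. These counts follow from how the members were chosen and support nothing on their own.

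**Figure D3:**
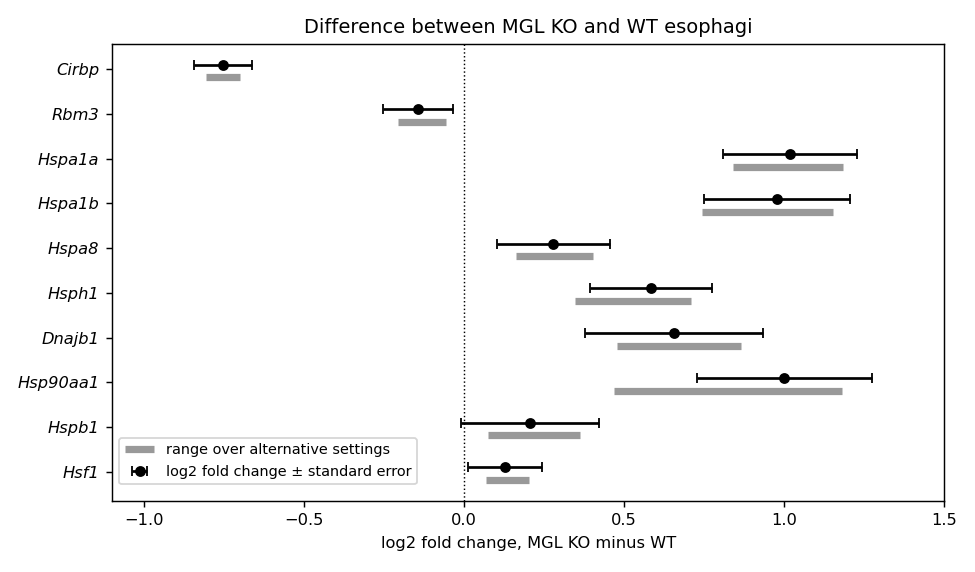
Log2 fold change of each of the 10 genes (x axis, MGL KO minus WT), with points and thin bars for the estimate ± standard error from edgeR over 4 against 4 libraries and thick grey bars for the range over the alternative settings. Cirbp and Rbm3 stayed below 0 and the 8 heat shock genes above 0 in every setting, and the range of Hsp90aa1, 0.47 to 1.18, was the widest.

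When both groups of genes were set side by side within a library, the ratio of Hspa1b to Cirbp was 1.72, 0.93, 0.90 and 1.15 in MGL KO replicates 1 to 4 and 0.36, 0.37, 0.28 and 0.42 in WT replicates 1 to 4. MGL KO replicate 1 was the highest and WT replicate 3 the lowest. The mean log2 normalized CPM of Cirbp and Rbm3 lay between 6.08 and 6.27 in MGL KO and between 6.56 and 6.66 in WT. That of the 8 heat shock members lay between 7.14 and 7.60 in MGL KO and between 6.73 and 6.98 in WT. Both means separated the genotypes, in opposite directions, though in the first of them Cirbp alone did so and Rbm3 overlapped. Within MGL KO, however, the library with the most Hspa1b, replicate 1, did not have the least Cirbp, which was in replicate 2. Within WT, replicate 3 had the most Cirbp and the least Hspa1b, but replicate 4 had the most Hspa1b and replicate 1 the least Cirbp.

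**Figure D4:**
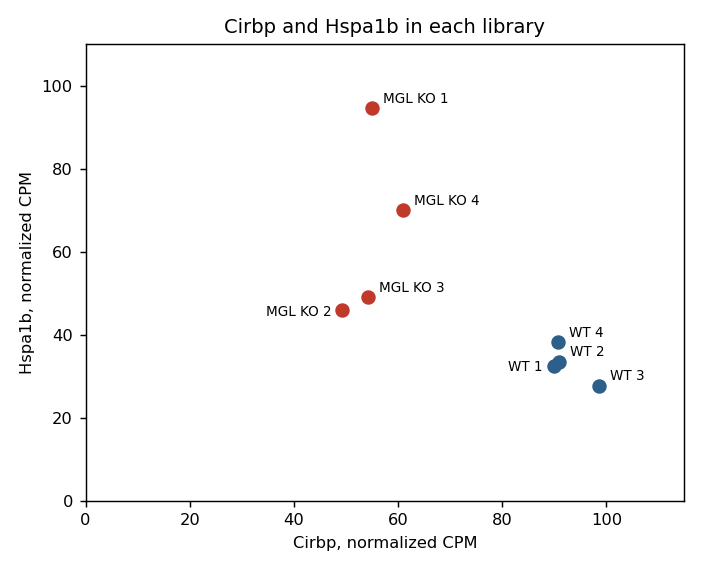
Hspa1b (y axis) against Cirbp (x axis), both in normalized CPM, with 1 labelled point for each of the 4 WT and 4 MGL KO libraries. The WT libraries lie together at 89.9 to 98.7 of Cirbp and 27.7 to 38.2 of Hspa1b, and the MGL KO libraries at 49.3 to 61.0 of Cirbp spread from 45.8 to 94.5 of Hspa1b.

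The wider chaperone and cold response network was examined through 94 other genes in 10 lists, of which 89 were tested. None passed edgeR's quasi-likelihood test after Benjamini-Hochberg adjustment in either direction, and 0 passed the exact test or DESeq2. At an unadjusted p under 0.05, 13 were higher in MGL KO (14.6%) and 1 was lower, against 647 higher and 638 lower of all genes tested. The log2 fold change was above 0 for 69 of the 89 and below 0 for 20, with a median of 0.15 against 0.02 over all genes tested. Without MGL KO replicate 2 that median was 0.07, and the median of every one of the 10 lists was closer to 0 or on its other side. The groups did not overlap for 5 higher (5.62%) and 1 lower, against 2.72% higher and 3.3% lower of all genes tested.

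Among the chaperones themselves, the HSP70 family beyond the members gave 0 calls in 11 genes, 9 of them above 0 (Hspa14 crossed 0 with library size alone), with a median log2 fold change of 0.18 that was 0.062 without MGL KO replicate 2. The mitochondrial Hspa9 (0.15, standard error 0.19), the endoplasmic reticulum chaperone Hspa5 (0.39, 0.23) and Hspa4 (0.15, 0.13) overlapped between the genotypes. Without MGL KO replicate 2 Hspa9 stood at -0.047 and Hspa4 at 0.062, and without MGL KO replicate 4 Hspa5 stood at 0.18. The exchange factors and partners of HSP70 gave 0 calls in 9 genes, 8 of them above 0 (Bag4 crossed 0 with library size alone), with a median of 0.29 that was 0.17 without MGL KO replicate 2. Bag3, a partner of HSP70 in selective autophagy that is induced through Hsf1, measured 296 ± 60.6 normalized CPM in MGL KO and 230 ± 21.2 in WT (SD, n = 4 each), a log2 fold change of 0.36 with a standard error of 0.16. Hspb8, which acts with Bag3, stood at 0.32 with a standard error of 0.22. Without MGL KO replicate 2 Bag3 was at 0.24 and Hspb8 at 0.11.

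The co-chaperones of the DNAJA and DNAJB classes gave 0 calls in 14 genes, 11 of them above 0 with a median of 0.14. On leaving out 1 library that median lay between 0.12 (without MGL KO replicate 2) and 0.22 (without WT replicate 1). Dnaja4, which had the most normalized CPM of them without regard to length, was the only one that did not overlap, at 263 ± 18.9 normalized CPM in MGL KO and 202 ± 24.2 in WT (SD, n = 4 each), a log2 fold change of 0.38 with a standard error of 0.12. That is 7.14% of the list, where 6.02% of all genes tested did not overlap, 2.72% higher in MGL KO. The HSP90 family and its co-chaperones gave 0 calls in 12 genes, 10 of them above 0, with a median of 0.21. Cdc37, just below 0, was just above it with RLE factors. There, Hsp90ab1 stood at 0.22 with a standard error of 0.18, Fkbp4, a co-chaperone of steroid receptors, at 0.30 with 0.14, and Stip1, which links HSP70 to HSP90, at 0.32 with 0.13. Hsp90ab1 was at 0.078 without MGL KO replicate 2, and Fkbp4 at 0.17 without MGL KO replicates 2 and 4.

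All 10 chaperonin genes had a log2 fold change above 0, with a median of 0.19, or 0.085 without MGL KO replicate 2, and 0 calls. Hspd1, the mitochondrial HSP60, measured 254 ± 33.4 normalized CPM in MGL KO and 208 ± 8.72 in WT (SD, n = 4 each), a log2 fold change of 0.29 that was 0.14 without MGL KO replicates 2 and 4. The 5 small heat shock genes tested were above 0 with a median of 0.15, which was -0.26 without MGL KO replicate 2, though Hspb3 and Hspb6 were below 0 with library size alone. Hspb6 (0.06, standard error 0.33) and Cryab (0.15, 0.42), both abundant in muscle, varied far more between libraries than between genotypes and stood at -0.26 and -0.36 without MGL KO replicate 2. The 3 other heat shock factors and regulators tested, Hsbp1, Hsf2 and Hsf4, stood at 0.12, 0.14 and 0.12, and at -0.024, -0.12 and -0.024 without MGL KO replicate 2. Of 5 other Hsf1 targets, 3 were above 0 and 2 below, with a median of 0.18 and 0 calls, and that median was -0.050 without MGL KO replicate 2. Ubb stood at 0.24, but at 0.025 without MGL KO replicate 2, and Serpinh1 at 0.18, but at 0.11 without MGL KO replicate 3 and 0.10 without WT replicate 2. In the other direction, Hmox1, the heme oxygenase induced by heat and oxidants, stood at -0.72 with a standard error of 0.23 and Dedd2 at -0.26 with 0.16 (-0.13 without MGL KO replicate 2), the last 2 named after their values were seen.

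On the cold side, the 6 cold shock domain genes tested were all above 0, with a median log2 fold change of 0.26. Without MGL KO replicate 2 the median was 0.094, with 3 genes above 0 and 3 below. Ybx3 and Ybx1, which bind mRNA and regulate its translation, stood at 0.27 and 0.30, with standard errors of 0.30 and 0.24, and both turned below 0 without MGL KO replicate 2. The CLK kinases and SR splicing factors, a system whose phosphorylation responds to body temperature, gave 0 calls in 14 genes, 4 above 0 and 10 below, with a median of -0.09. Without MGL KO replicate 2, 7 were above and 7 below, with a median of -0.016. Srsf5 measured 409 ± 114 normalized CPM in MGL KO and 548 ± 40.4 in WT (SD, n = 4 each), a log2 fold change of -0.42 with a standard error of 0.21 that was -0.24 without MGL KO replicate 2. Its groups were separated only narrowly, with the highest MGL KO library at 494 and the lowest WT library at 495 normalized CPM. Srsf6 stood at -0.18 (-0.056 without MGL KO replicate 2 and -0.12 without WT replicate 3) and Srsf3 at 0.15, the latter without overlap and higher in MGL KO.

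**Figure D5:**
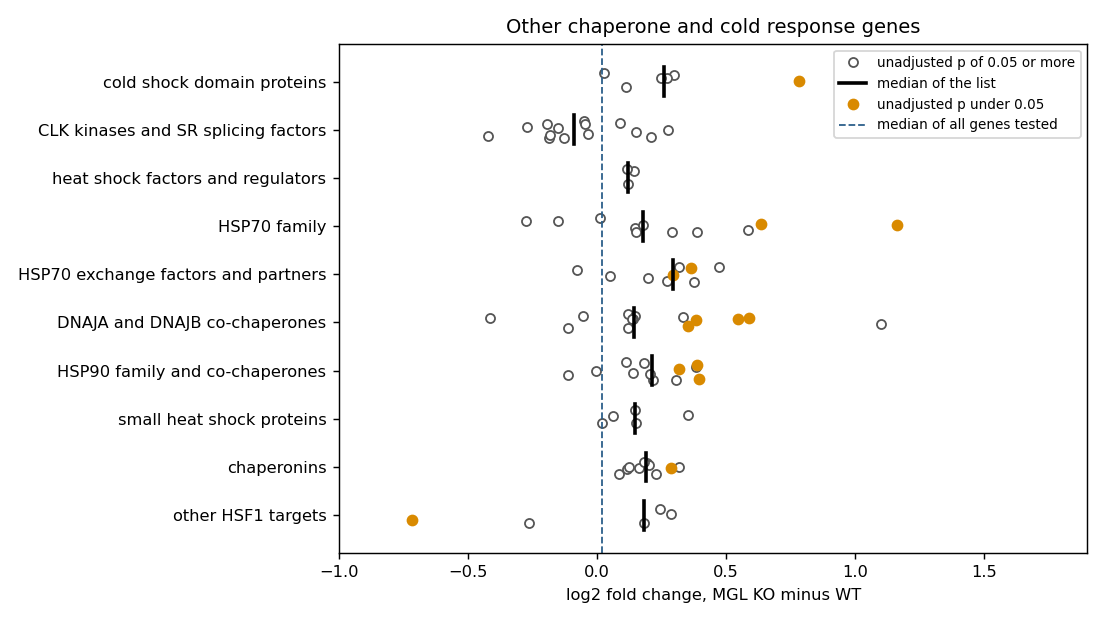
Log2 fold change (x axis, MGL KO minus WT) of the 89 other chaperone and cold response genes tested, 1 point per gene in 10 lists, filled where the unadjusted p was under 0.05, with a bar for the median of each list and a dashed line for the median of all genes tested, 0.02. None of the points passed the adjusted threshold, and 9 of the 10 list medians lay above the dashed line, that of the CLK kinases and SR splicing factors below it.

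Gene sets known to answer to the handling of tissue or to the time of day were measured in the same libraries. The summed level of 13 immediate early genes lay between 513 and 857 normalized CPM in MGL KO, highest in replicate 1, and between 394 and 454 in WT. Of these genes, 12 had a log2 fold change above 0 and 4 did not overlap between the genotypes, with 0 called by edgeR's quasi-likelihood test after Benjamini-Hochberg adjustment and 8 higher at an unadjusted p under 0.05. Of all genes tested, 53% were above 0, 2.72% were higher without overlap and 4.35% were higher at that p. The paper's own exact test lists Fos, of these early genes, among those that differ significantly. MGL KO replicate 1, the library with the most Hspa1a and Hspa1b, also held the most Fos, an early response gene, at 120 normalized CPM, against 19.0 to 45.7 in the other MGL KO libraries and 5.30 to 10.2 in WT. The part of the immediate early response in the heat shock values was not tested.

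Of the 15 clock gene symbols listed, 14 were tested, since Bmal1 and Arntl name the same gene and only Arntl was counted. Of these, 0 were called by edgeR's quasi-likelihood test. At an unadjusted p under 0.05 in that test, 5 were higher and 3 lower, where 647 and 638 of the 14864 genes tested were. The paper's own exact test lists Nfil3, of these genes, among those that differ significantly. Of the 14, 6 had a log2 fold change above 0 and 8 below, and 3 did not overlap between the genotypes, all higher in MGL KO. Of all genes tested, 53% were above 0, and 2.72% were higher and 3.3% lower without overlap. Nfil3, a repressor of clock output genes, had the lowest p of the list and lay between 13.0 and 34.4 normalized CPM in MGL KO and between 6.06 and 7.10 in WT (log2 fold change 1.85, standard error 0.27, adjusted p = 0.0966). Cry1, a repressor within the clock, was also higher without overlap (0.86, standard error 0.22). Arntl, the gene of BMAL1, lay between 34.2 and 51.2 normalized CPM in MGL KO and between 18.1 and 31.8 in WT, without overlap. Dbp, an output of the clock in the opposite phase, measured 60.6, 29.5, 18.6 and 19.3 normalized CPM in MGL KO replicates 1 to 4 and 57.3, 61.9, 125 and 109 in WT replicates 1 to 4, and overlapped only through MGL KO replicate 1. Per1 stood at 0.66 with a standard error of 0.39, Per2 at -0.12 with 0.55 and Ciart at -0.40 with 0.51, and all 3 overlapped between the genotypes. On leaving out 1 library Per1 reached 1.17 (without WT replicate 4), Per2 ranged from -0.56 (without MGL KO replicate 4) to 0.19 (without WT replicate 4) and Ciart from -1.08 (without MGL KO replicate 1) to -0.16 (without MGL KO replicate 4). These clock genes were named after their values were seen. WT replicate 3 had the most of both Cirbp and Dbp in its genotype, but in MGL KO replicate 4 had the most Cirbp and replicate 1 the most Dbp. The part of the time of day in the Cirbp difference was not tested, and the time at which each esophagus was taken is not given in the sources used here.

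The tested genes whose levels followed each member most closely within the genotypes were ranked by Pearson's r of log2 normalized CPM after each genotype's mean was subtracted, over the 8 libraries, so that all genes compared share their libraries' depth and tissue makeup. For Cirbp these were Bcl9 (r = 0.99), Trim3 (0.99) and Trim17 (0.98), among 117 genes at 0.9 or above. For Rbm3 they were Rpl13-ps6 (0.99), Pabpc1 (0.95) and Gigyf2 (0.95), among 24 genes. For Hspa1a they were Rpl17-ps10 (0.99), Pnpt1 (0.97) and Mllt10 (0.96), among 17 genes. Neither Hspa1b for Hspa1a nor Rbm3 for Cirbp was among the first 3, and with so few libraries such values are a description only.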

How the data were processed

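From poly(A)-selected RNA, the authors deposited raw counts per gene symbol, made from reads that were checked with FastQC 0.11.9, trimmed with Cutadapt and aligned to GRCm39 with STAR 2.7.10b, per the submitters' processing notes. The counting tool, annotation and strand setting are not given in the sources used here. The 4 MGL KO and 4 WT libraries were grouped by the labels. The study gives its n as esophagi, but the labels name no animal for a library, so p-values measure only the spread between these libraries, part of which may be technical.

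Genes were filtered by filterByExpr (edgeR 4.0.16, R 4.3.3) at a minimum count of 10, and library sizes were scaled by TMM factors (0.82 to 1.11). MGL KO was compared with WT across all genes by edgeR's quasi-likelihood test, with p-values adjusted by Benjamini-Hochberg and a threshold of 0.05. Standard errors were derived from the F statistic and the log2 fold change. Log2 CPM used a prior count of 1. Alternatives were edgeR's exact test, with and without a filter, DESeq2 1.42.0, limma-voom with quality weights (limma 3.58.1), other scalings, no filter, tissue, sex and replicate terms, Hspa1a and Hspa1b summed, and leaving out libraries. Leaving out MGL KO replicates 2 and 4 together, and canonical transcript lengths for levels per kb, were chosen after seeing the data. The procedures were tested on simulated data.

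Positions and promoters came from GENCODE mouse release 39 on GRCm39, which held 30742 of the symbols. The members and the gene lists were chosen with earlier results of these data known. Genes named were the members, Mgll, the 3 most abundant tested genes of each list (2 genes that this names are not reported here), any called gene of a list, and the 3 genes most like Cirbp, Rbm3 and Hspa1a.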

Additional observations from a re-analysis of the deposited data

Results flagged for a closer look

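In 9 of 80 groups of 4 libraries, the highest library stood apart from the others by more than Dixon's critical value allows, where chance gives about 1 in 20, or 4 of 80. Among the members, Cirbp in WT replicate 3 was at 98.7 normalized CPM against 91.0 in the next WT library, and Hspa8 in WT replicate 3 was at 1932 against 1485. The ratio of Hsp90aa1 to Hsp90ab1 was 0.227 in MGL KO replicate 4 against 0.103 in the next MGL KO library. Among the other chaperone and cold response genes, MGL KO replicate 2 stood apart in Ybx1 (1824 normalized CPM against 986), Hsbp1 (155 against 113), Bag1 (417 against 242) and Ubb (1015 against 624). WT replicate 3 stood apart in Hsbp1 (130 against 107) and Bag1 (232 against 189). All but 1 of these 9 values came from the 2 libraries with the most skeletal muscle signal, and whether tissue makeup set them was not tested.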

How the results depend on the processing

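The direction of all 10 members was the same in every alternative run. Cirbp ranged from -0.81 to -0.70 (adjusted p from 7.19e-12 to 0.502), and Hsp90aa1 from 0.47, without MGL KO replicates 2 and 4, to 1.18. With 7 genes called in all (3 higher in MGL KO), the count was 64 by the exact test, 42 by the exact test without a filter, 137 by DESeq2, 25 by limma-voom, 6 with library size alone (5 higher), 2 with no filter, 2 with the squamous covariate, 27 with the skeletal muscle covariate, 3 with the Y-linked covariate, 2 without MGL KO replicates 2 and 4, and 2 to 5 on leaving out 1 library. Of the 10 members, where 1 was called, the exact test called 3 (0.431% of all genes), the exact test without a filter 2 and DESeq2 4 (0.922%), namely Cirbp, Hspa1a, Hspa1b and Hsp90aa1. Library size alone, no filter, the squamous and the Y-linked covariate, leaving out MGL KO replicates 2 and 4, and leaving out any 1 library each called 0. The 0 calls among the 89 other genes held in every alternative. Same-numbered libraries did not deviate together (r = -0.14, -0.28, -0.14 and 0.08 for replicates 1 to 4), and the labels link them by the number alone. Such r values, taken over all genes tested, cannot show that these libraries share nothing else. With the replicate number as a block 2 genes and 0 members were called.

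Among the genes named by the rule, log2 fold changes that crossed 0, none of them called, were those of Ybx3 (-0.099 to 0.45 on leaving out 1 library), Ybx1 (-0.0022 to 0.42), Hsbp1 (-0.024 to 0.21), Hsf2 (-0.12 to 0.37), Hsf4 (-0.024 to 0.28), Hspa9 (-0.047 to 0.24), Dnajb5 (-0.24 to 0.014), Hspb6 (-0.26 to 0.29) and Cryab (-0.36 to 0.46). Without MGL KO replicates 2 and 4 they were -0.030 for Hsbp1, -0.025 for Hspa9, -0.075 for Hspb6 and -0.19 for Cryab. Hspb6 was at -0.0046 by limma-voom, -0.022 with library size alone, -0.040 with the squamous and -0.082 with the Y-linked covariate, and Cryab at -0.0073, -0.016 and -0.016 by limma-voom and with these covariates. The cause was not tested. With 4 libraries a genotype, a difference the size of that of Hspa1b (0.98, standard error 0.23) was not called by the quasi-likelihood test.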

Other observations

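Of the 13 listed genes that were higher in MGL KO at an unadjusted p under 0.05 in edgeR's quasi-likelihood test, none of which passed its adjustment, 4 chaperone genes outside the rule for named genes are given here, chosen after their values were seen. Dnaja1, a farnesylated HSP40, stood at a log2 fold change of 0.54 with a standard error of 0.15. Dnajb4 stood at 0.59 with a standard error of 0.21. Hspa4l, a relative of HSP110, lay between 53.3 and 121 normalized CPM in MGL KO and between 44.7 and 52.8 in WT. Hspa2, an HSP70 gene best known from the testis, lay between 11.6 and 51.7 normalized CPM in MGL KO and between 9.93 and 10.8 in WT. The highest value of both genes was that of MGL KO replicate 4, the library with the airway ciliated cell and adipocyte signal. Without it Hspa4l reached at most 75.4 and Hspa2 at most 16.2 normalized CPM in MGL KO, and their log2 fold changes went from 0.63 to 0.34 (standard error 0.13) and from 1.16 to 0.40 (standard error 0.16). The part of those other tissues in these values was not tested otherwise. Hmox1, the 1 gene of the lists that was lower at that level, lay between 7.76 and 12.5 normalized CPM in MGL KO and between 11.2 and 19.6 in WT.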
